A study of Mus musculus with 32 samples.

Results

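Lyz1 and Lyz2 are a pair of neighbouring mouse genes that encode near-identical copies of lysozyme c. They were chosen from these data because Lyz1 was close to absent in chondrocyte cultures of the LG/J strain while Lyz2 was not, so the strain levels below are a description of the values that chose them and carry no test. The pair makes up 2 of the 41388 genes counted and 2 of the 16136 genes that passed the filter on low counts. Lyz1 passed that filter through SM/J alone. The filter asks for a level of 0.486 CPM (counts scaled to the library total) in enough libraries, and Lyz1 reached it in 5 of 16 LG/J and 16 of 16 SM/J libraries, against 16 of 16 in both strains for Lyz2.

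The cells were primary chondrocytes, the matrix-producing cells of cartilage, taken from femoral heads at postnatal day 21, and their RNA was sequenced. LG/J and SM/J are inbred mouse strains, and females and males of each gave 8 libraries per group, 32 in all. Strain and sex thus define the 4 groups, with no treatment and no engineered allele named. In all of them the cells were seeded into 24-well plates with medium holding 10% fetal bovine serum, and they were collected unpassaged after 4 days. As a model, such cultures hold whatever other cells the isolation from the femoral head carried over, and how many animals were pooled is not given in the sources used here. Nothing in the labels says that libraries of a group came from separate animals or cultures, so every p-value below reflects only the variation among these libraries, and that variation may be technical.

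Lysozyme c cleaves the sugar backbone of bacterial peptidoglycan and is among the most abundant secreted and lysosomal enzymes of myeloid cells. In mice the ancestral gene was duplicated: Lyz2, the M type, is the lysozyme of macrophages, monocytes and neutrophils and its locus drives a widely used myeloid Cre line, whereas Lyz1, the P type, is best known from Paneth cells of the small intestine. Neither gene is a chondrocyte marker. Csf1r, the receptor for the growth factor that macrophages need to survive, and Mpeg1, a pore-forming protein of phagocytes, serve below as macrophage reference genes.

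The deposited positions are on GRCm38, where Lyz1 (ENSMUSG00000069515) lies at chr10:117287796-117292868 and Lyz2 (ENSMUSG00000069516) at chr10:117277334-117282274, both on the minus strand and each with 4 exons. Because reads from such copies can be confused, the sequences that tell them apart are given first, 5′ to 3′, with the bases that differ between the genes in capitals. Exon 1 of the GENCODE M21 transcripts holds most of the coding differences: 14 of its 136 coding bases differ (89.7% identical).
Lyz1, coding part of exon 1, chr10:117292703-117292838: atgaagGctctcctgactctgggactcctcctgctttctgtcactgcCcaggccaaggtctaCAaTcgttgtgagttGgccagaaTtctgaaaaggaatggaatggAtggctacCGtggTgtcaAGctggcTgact
Lyz2, coding part of exon 1, chr10:117282107-117282242: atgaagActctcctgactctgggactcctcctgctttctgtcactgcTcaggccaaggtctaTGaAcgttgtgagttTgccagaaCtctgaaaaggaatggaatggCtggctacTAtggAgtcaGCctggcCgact
Exon 2 differs at 6 of 165 bases (96.4% identical), with an identical run of 60 bases.
Lyz1, exon 2, chr10:117291029-117291193: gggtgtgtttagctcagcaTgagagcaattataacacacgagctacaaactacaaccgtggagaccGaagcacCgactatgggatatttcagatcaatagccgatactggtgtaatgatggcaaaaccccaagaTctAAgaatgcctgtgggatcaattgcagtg
Lyz2, exon 2, chr10:117280641-117280805: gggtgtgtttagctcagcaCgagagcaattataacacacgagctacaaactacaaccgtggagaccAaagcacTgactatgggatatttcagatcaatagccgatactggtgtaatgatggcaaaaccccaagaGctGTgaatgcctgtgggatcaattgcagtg
Exon 3 is the same in both genes over its 79 bases, so that a read lying inside it fits either copy; it has no capitals.
Lyz1, exon 3, chr10:117289119-117289197: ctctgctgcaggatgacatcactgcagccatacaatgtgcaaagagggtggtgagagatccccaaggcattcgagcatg
Lyz2, exon 3, chr10:117278643-117278721: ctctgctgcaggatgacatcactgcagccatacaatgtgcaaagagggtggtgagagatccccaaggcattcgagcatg

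Over the coding sequence without its stop codon, 422 of 444 bases were identical (95.0%). Over the whole transcripts 1211 of 1317 aligned positions were identical (92.0%), and the longest identical run was 118 bases. Of all stretches of 50 bases in the Lyz1 transcript, 195 of 1214 (16.1%) also occur in Lyz2, and of stretches of 100 bases 24 of 1164 (2.06%). In the Lyz2 transcript the same shares were 15.4% and 1.97%. Most positions therefore tell the copies apart in the reference, which is of another strain than LG/J and SM/J. How the counting treated reads that fit both genes is not given in the sources used here, and the read length is not either, so the split of counts between the copies is uncertain by the reads that fall in shared stretches.

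The promoter windows, from 250 bases before to 50 bases after the start of each gene (RefSeq, GRCm38.p6), are shown because the copies differ most far from the start. Over both windows 249 of 302 aligned positions were identical (82.5%), but over the last 150 bases 141 were (94.0%), with an unbroken identical run of 86. Both windows are on the minus strand.
Lyz1, promoter window, chr10:117292819-117293118: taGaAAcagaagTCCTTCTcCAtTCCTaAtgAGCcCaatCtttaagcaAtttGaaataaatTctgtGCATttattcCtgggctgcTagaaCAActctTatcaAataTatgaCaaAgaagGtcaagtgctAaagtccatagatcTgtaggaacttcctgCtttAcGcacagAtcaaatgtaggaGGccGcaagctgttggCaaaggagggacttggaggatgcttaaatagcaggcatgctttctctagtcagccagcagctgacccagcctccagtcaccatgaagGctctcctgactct
Lyz2, promoter window, chr10:117282223-117282522: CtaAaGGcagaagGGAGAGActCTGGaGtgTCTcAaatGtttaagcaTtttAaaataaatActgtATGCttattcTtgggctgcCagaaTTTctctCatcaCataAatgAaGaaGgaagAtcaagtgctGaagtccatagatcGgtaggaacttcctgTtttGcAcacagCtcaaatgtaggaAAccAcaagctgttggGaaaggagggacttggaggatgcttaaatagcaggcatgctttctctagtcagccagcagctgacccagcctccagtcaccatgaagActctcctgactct
Letters of known motifs were searched on both strands. The TATA-like letters TTAAATA occurred once in each window, 28 bases before the start, and in 4.51% of 32851 RefSeq promoter windows of this length. The ETS-type letters AGGAAG occurred 1 time in Lyz1 and 2 times in Lyz2 and in 35.4% of all windows, and the C/EBP-type letters TTNCNNAA 1 time in each, at different distances from the start, and in 40.7% of windows. GAGGAA, a form of the letters bound by PU.1, occurred in neither window and in 28.3% of all, and the AP-1 letters TGANTCA in neither and in 7.81%. The lack of GAGGAA does not show that a window holds no site for PU.1. A match describes letters in the reference window and is not a measured binding site.

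Several facts of the series touch the lysozyme values. Total counts were 15840330 to 25571598 per library. LG/J male library 6 and SM/J female library 2 held far more macrophage transcripts than the rest of their groups. Both LG/J libraries numbered 1 stood apart, with Acan, the core protein of the cartilage proteoglycan, at 48.1 and 67.5 CPM against 1176 to 3360 in the other 14 LG/J libraries. In all, 6 libraries held transcripts of both sexes: 4 female libraries had the Y-linked Ddx3y at 19.6 to 82.5 CPM against 0.202 to 1.26 in the other females, and 2 male libraries had Xist at 16.3 and 17.6 CPM against at most 0.606 in the other males. In 8 pairs of libraries within a group the counts differed less than in the other pairs, and whether they share material was not tested. Levels below are CPM scaled by the trimmed mean of M-values (TMM), given as mean ± standard deviation (SD).

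Lyz1 was read a handful of times in LG/J and far more often in SM/J. Its counts were lowest 1, median 4.5 and highest 19 in LG/J females, and in LG/J males they were 2, 5 and 31. Among SM/J females they were lowest 172, median 763.5 and highest 2072, and in SM/J males 313, 941.5 and 1433. Every SM/J library lay above every LG/J library, and no library was at 0. How many of all genes separate the strains in this way was not counted. In bulk RNA, fewer cells of a type and less RNA per cell cannot be told apart. In scaled CPM, LG/J averaged 0.381 ± 0.368 and SM/J 40.9 ± 22.0 (SD, n = 16 each), a 107-fold ratio of means, and the highest LG/J value of 1.26 stood against a lowest SM/J value of 7.31. The log2 fold change of the edgeR fit, LG/J minus SM/J, was -6.70 ± 0.41 (standard error, SE), and leaving out each library in turn kept it between -6.93 and -6.53. For reference, 4826 of 16136 genes (29.9%) were called between the strains in that fit at an adjusted p under 0.05, a share from which nothing is read here because this contrast chose the pair.

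Lyz2, the myeloid copy, was read well above the filter in every library of both strains. Its counts were lowest 180, median 422.5 and highest 1059 in LG/J females, and 203, 552.5 and 25070 in LG/J males, where the highest value is library 6. In SM/J females they were 1049, 3829 and 10343, the last in library 2, and in SM/J males 1994, 4801 and 7124. The strains overlapped: 12 of 16 LG/J libraries lay below the lowest SM/J library at 44.6 CPM and 4 did not. LG/J averaged 95.0 ± 249 CPM and SM/J 214 ± 109 (SD, n = 16 each), with medians of 24.2 and 200.0. The ratio of means, SM/J over LG/J, was 2.25 and became 6.44 without LG/J male 6, which at 1022 CPM was the highest of all 32 libraries. The fitted log2 difference, LG/J minus SM/J, was -1.72 ± 0.50 with that library and -2.70 ± 0.35 without it. Lyz2 was thus also lower in most LG/J libraries, by a smaller factor than Lyz1.

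**Figure D1:**
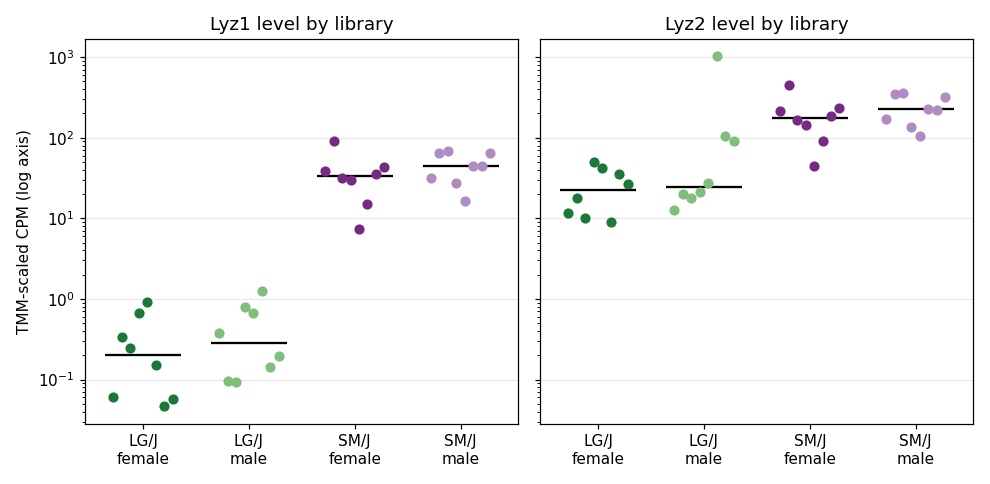
TMM-scaled CPM (log axis) of Lyz1 (left) and Lyz2 (right) in each library, by strain and sex, with a bar at the median of each group of 8. All LG/J points for Lyz1 lie under all SM/J points, at up to 1.26 against 7.31 or more, while LG/J male 6 has the highest Lyz2 level of all at 1022.

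Set per length of transcript as RPKM, the CPM per kilobase of gene, Lyz2 was the higher copy in every library. The median in SM/J was 29.2 RPKM for Lyz1 and 157 RPKM for Lyz2, and in LG/J 0.178 and 19.5 RPKM. The deposited lengths of the genes are 1264 and 1266 bases, so their counts compare almost directly, and the share of Lyz1 in the summed counts of the pair needs no scaling between libraries. In SM/J this share was lowest 13.6% in male 5, median 16.1% and highest 17.2% in female 4, with a mean of 15.8 ± 1.02% (SD, n = 16). In LG/J it was lowest 0.124% in male 6, median 0.916% and highest 3.55% in male 4, with a mean of 1.28 ± 1.13% (SD, n = 16). No LG/J library came near the SM/J range.

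The share varied far less in SM/J than the amount of lysozyme transcript. Between the lowest and the highest SM/J library the summed CPM of the pair varied 10.4-fold and the share 1.26-fold. In SM/J the share had a Pearson r of 0.65 with the log2 of that sum (permutation p = 0.0059, adjusted over the strains 0.0118). Spearman rho was 0.41 (permutation p = 0.115), and r was 0.50 without SM/J females 2 and 5. In LG/J r was -0.45 (permutation p = 0.0702, adjusted 0.0702) and rho -0.54 (permutation p = 0.0326). This relation was noticed in these data, and the share and the sum hold the same counts, so its p-values describe it and do not test it. Summed over the 16 SM/J libraries, 13710 counts were Lyz1 and 71545 Lyz2, a share of 16.1% with a 95% exact (Clopper-Pearson) interval of 15.8 to 16.3%. These intervals cover counting error only, since reads copied by PCR are not independent molecules.

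In LG/J the share was low throughout and varied between libraries. It lay at 0.124 to 0.213% in 5 libraries (females 7 and 8 and males 6, 7 and 8), at 0.472 to 0.526% in 3, and at 1.30 to 3.55% in the other 8. These bands were drawn after the values were seen. LG/J male 6 had 31 Lyz1 and 25070 Lyz2 counts (0.124%, 95% exact interval 0.0839 to 0.175%), and the interval of each of the 8 libraries in the upper band, which rest on 3 to 19 Lyz1 counts, lay above it. This describes counting error in libraries picked by their values and is not a test. LG/J male 4 had 18 and 489 counts (3.55%, 2.12 to 5.55%). LG/J male 6, the library richest in Lyz2, thus had the smallest measured share of Lyz1, with the largest number of Lyz1 counts in its strain. Its share lies within the intervals of females 7 and 8, at 1 Lyz1 count each, and of male 7, at 3. The order among these libraries is therefore not resolved. Over all 16 LG/J libraries, 133 Lyz1 counts stood against 35382 of Lyz2, or 0.374% (0.314 to 0.444%). LG/J male 6 alone gave 25070 of those Lyz2 counts, so the pooled share leans on that library. The median share of 0.916% and the mean of 1.28% over the LG/J libraries lie above the pooled interval, which covers counting error only.

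**Figure D2:**
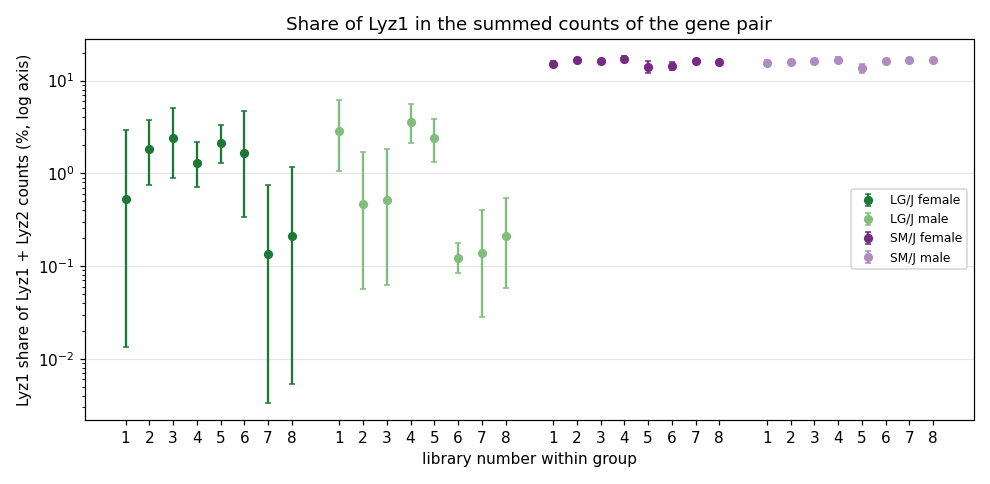
Share of Lyz1 in the summed Lyz1 and Lyz2 counts of each library (%, log axis), with 95% exact binomial intervals, by library number within each of the 4 groups. SM/J libraries form a narrow band at 13.6 to 17.2%, and LG/J libraries spread from 0.124 to 3.55%.

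Sex was not used to choose the pair, so it was tested, with edgeR's quasi-likelihood test adjusted by Benjamini and Hochberg over all 16136 genes. In SM/J, where 929 genes (5.76%) were called between the sexes, Lyz1 differed by 0.31 ± 0.42 on the log2 scale, male minus female (adjusted p = 0.770), and Lyz2 by 0.31 ± 0.69 (adjusted p = 0.879). Neither difference exceeded its error, and both came to about 0 (-0.03 and -0.05) without the 6 libraries that mixed transcripts of the sexes. In LG/J, where 8 genes (0.0496%) were called, Lyz1 differed by 0.55 ± 0.65 (adjusted p = 0.937), and by 1.54 ± 0.78 (adjusted p = 0.425) without the libraries of mixed sex. Lyz2 differed by 2.70 ± 0.73 (adjusted p = 0.623), and by 0.74 ± 0.48 (adjusted p = 0.784) without LG/J male 6. DESeq2 called that difference, at 2.72 (adjusted p = 0.0378), with all libraries in the fit. Its handling of outlying counts was turned off, so LG/J male 6 entered in full. The test of the difference between strains in the effect of sex, which called 1 gene (0.0062%), gave 0.24 ± 0.75 for Lyz1 (adjusted p = 0.983; 1.57 ± 0.92 and 0.517 without the libraries of mixed sex) and 2.40 ± 0.99 for Lyz2 (adjusted p = 0.476). Lyz1 passed the filter through SM/J alone, with median counts of 4.5 in LG/J females and 5 in LG/J males. Its LG/J sex difference, and the strain comparison built on it, are too sparse to read an effect or its absence from.

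The share of Lyz1 was also compared between the sexes, by a two-sided exact permutation test of 8 against 8 libraries. In SM/J it was 15.7 ± 1.08% in females and 15.9 ± 1.03% in males, a difference of 0.201 percentage points (exact permutation p = 0.714). In LG/J it was 1.27 ± 0.877% and 1.28 ± 1.41%, a difference of 0.0126 points (exact permutation p = 0.986). Both differences were smaller than the spread within a sex. In SM/J this does not show that the sexes are alike, only that no difference was detected over 8 libraries each. The LG/J shares rest on 1 to 31 Lyz1 counts per library, and every library weighed the same. They are too sparse to read a sex difference or its absence from.

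Across libraries of one strain, the copies moved together in SM/J. Correlations were computed on log2 TMM CPM (prior count 2) for 5 pairs of genes in each strain, 10 relations in all, with two-sided permutation p-values from 100000 resamples, the smallest of which is 1e-05, adjusted over the 10. In SM/J Lyz1 and Lyz2 had a Pearson r of 0.996 (permutation p = 1e-05, adjusted 3.33e-05) and a Spearman rho of 0.991 (permutation p = 1e-05, adjusted 0.0001). Without SM/J females 2 and 5, the farthest from the median, r was 0.990. How reads fitting both copies were counted is not given, so the counts of the copies may not be fully independent. In LG/J r was 0.44 (permutation p = 0.0804, adjusted 0.1) and rho 0.28 (permutation p = 0.289, adjusted 0.361), and r fell to 0.24 without LG/J males 6 and 7. With Lyz1 at 1 to 31 counts, the LG/J values are too sparse to read a relation or its absence from.

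Lyz2 followed Csf1r in both strains. Csf1r counts ran from 14 to 3897 in LG/J, with the highest in male 6, and from 27 to 4068 in SM/J, with the highest in female 2. In LG/J r was 0.94 (permutation p = 2e-05, adjusted 5e-05) and rho 0.84 (permutation p = 0.00011, adjusted 0.000275), and r was 0.75 without LG/J males 6 and 7. In SM/J r was 0.87 (permutation p = 1e-05, adjusted 3.33e-05) and rho 0.85 (permutation p = 7e-05, adjusted 0.000275), and r was 0.77 without SM/J females 2 and 5. Within one sex the LG/J relation had an r of 0.98 in males (adjusted p = 0.0019) and 0.74 in females (adjusted p = 0.079, permutation over 8 libraries). In SM/J the within-sex values were 0.96 in females and 0.79 in males.

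Lyz1 followed Csf1r in SM/J, and at its low counts in LG/J no relation was detected. In SM/J r was 0.88 (permutation p = 1e-05, adjusted 3.33e-05) and rho 0.82 (permutation p = 0.00015, adjusted 0.0003), with r at 0.82 without SM/J females 2 and 5. It was 0.96 in females and 0.85 in males taken alone. In LG/J r was 0.33 (permutation p = 0.218, adjusted 0.241) and rho 0.14 (permutation p = 0.617, adjusted 0.685), and r was 0.01 without LG/J males 6 and 7. The difference between the strains in r was not tested.

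Mpeg1 was the scarcer reference, at 0 counts in LG/J female 3 and SM/J female 6, where 3 counts would be 0.127 and 0.135 CPM. In SM/J its r was 0.80 with Lyz1 (permutation p = 0.00029, adjusted 0.00058; rho 0.82, adjusted 0.000383) and 0.78 with Lyz2 (permutation p = 0.00067, adjusted 0.00112; rho 0.85, adjusted 0.000275). Without SM/J females 2 and 6 these were 0.79 and 0.75. In LG/J r was 0.83 with Lyz2 (permutation p = 0.00239, adjusted 0.00341), but rho was 0.36 (permutation p = 0.17, adjusted 0.243) and r was 0.33 without LG/J female 3 and male 6, so that relation rests on those libraries. With Lyz1 in LG/J r was 0.32 (permutation p = 0.241, adjusted 0.241), rho -0.03 (permutation p = 0.918, adjusted 0.918), and r was -0.30 without the same libraries.

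**Figure D3:**
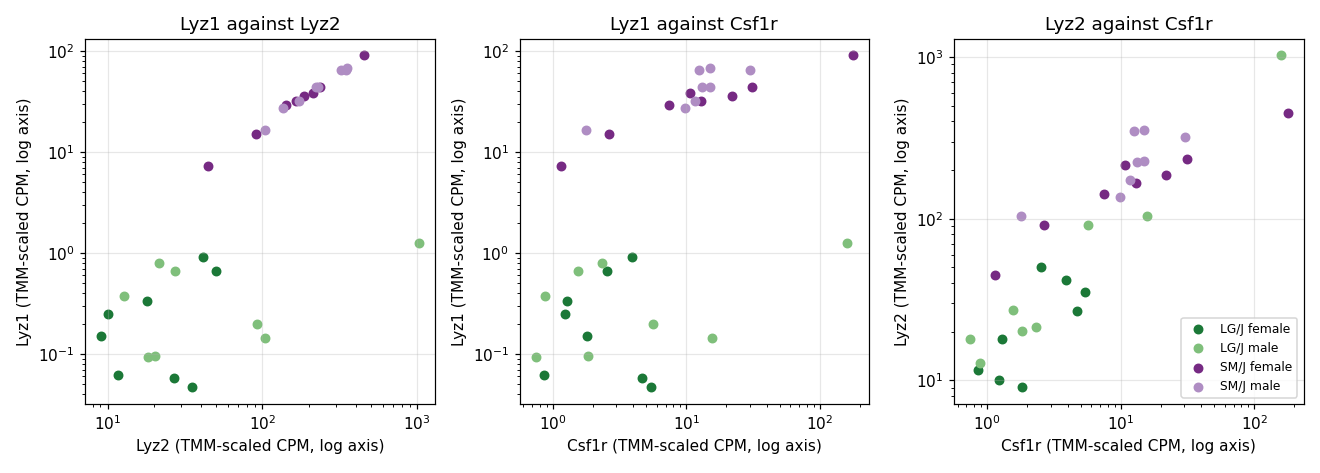
TMM-scaled CPM per library (log axes) of Lyz1 against Lyz2 (left), Lyz1 against Csf1r (middle) and Lyz2 against Csf1r (right), coloured by strain and sex. SM/J points for the copies lie along a line (r = 0.996), LG/J points for Lyz1 lie under them at every level of Lyz2 or Csf1r, and in the right panel both strains rise with Csf1r.

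Counted against Csf1r, the 2 copies differed between strains in unlike ways. There were 5.0 to 24.3 Lyz2 counts per Csf1r count in LG/J (median 10.9) and 2.54 to 58.6 in SM/J (median 16.1), so that the range of LG/J lay inside that of SM/J. The lowest SM/J ratio was in female 2, the library with the most Csf1r, and the highest in male 5. For Lyz1 the ratio was 0.00795 to 0.429 in LG/J (median 0.104) and 0.509 to 9.21 in SM/J (median 3.16), with no overlap. The gap is narrow and its LG/J edge rests on few counts. That edge is 6 Lyz1 over 14 Csf1r counts in male 1 and 15 over 35 in male 5. Its SM/J edge is female 2, at 2072 over 4068. The share of all genes whose ratios to Csf1r lie apart was not counted either. Both genes of each ratio are unscaled counts from genes of different length, so the ratios are comparable between libraries and not between genes.

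The genes whose levels moved most like the pair were then ranked. Likeness was the Pearson r on log2 CPM over the 16 libraries of a strain among all genes kept, given without a p. In SM/J the closest to Lyz1 were Lyz2 (0.996), Fgr, a Src-family kinase of myeloid cells (0.943), Fcer1g, the signalling chain of Fc receptors (0.917), Igsf6 (0.913) and Pirb, an inhibitory receptor of myeloid cells (0.910). Csf1r ranked 9 and Mpeg1 78. The closest to Lyz2 in SM/J were Lyz1, Fgr (0.940), Pirb (0.911), Igsf6 (0.899) and Tmem106a (0.895). In LG/J, where Lyz1 had too few counts to rank, the closest to Lyz2 were Tyrobp, the adaptor of many myeloid receptors (0.974), Adgre1, which encodes the macrophage antigen F4/80 (0.965), Pld4 (0.964), the complement receptor C3ar1 (0.963) and Gpr183 (0.962). Without LG/J male 6 these 5 were at 0.958, 0.937, 0.915, 0.904 and 0.903, and the r of Lyz1 itself, ranked 1194, went from 0.441 to 0.126.

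Macrophage transcripts other than lysozyme were compared between strains beside the pair. Of 28 macrophage and monocyte markers 24 were kept, and 8 were lower and 1 higher in LG/J, against 13.5% lower and 16.4% higher among all genes tested. The median log2 difference was -1.17, beside 0.02 for all genes, and 21 of 24 were negative. Mpeg1 fell by 3.04 on the log2 scale (SE 0.72, edgeR adjusted p = 0.00148), with a median of 2.93 CPM in SM/J against 0.181 in LG/J. Ccr2, the receptor that recruits monocytes, differed by -2.53 ± 0.58 and Fcgr1, the high-affinity IgG receptor, by -2.68 ± 0.68. The others lower were Ctss, Cd53, Fcgr3, Tyrobp and Fcer1g, and the one higher was Mertk, a receptor for the uptake of dying cells, at 0.56 ± 0.11.

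Csf1r did not pass the test, at -1.41 ± 0.68 (edgeR adjusted p = 0.120), at a level of 13.1 ± 39.1 CPM in the LG/J and 23.4 ± 42.1 CPM in the SM/J libraries (SD, n = 16 each). Without LG/J male 6 it was -2.67 ± 0.57 (adjusted p = 0.000562), and the number of markers lower in LG/J was 18, against 14.5% of all genes. The count was 5 without SM/J female 2, beside 13.3% of all genes, and 5 without SM/J male 8, beside 12.5%. It was 14 of 23, beside 14.3% of all genes, without both LG/J male 6 and SM/J female 2, an alternative chosen after seeing the data. With close pairs of libraries summed it was 3, beside 8.91% of all genes. The summed level of the 28 markers ran from 69.3 to 1802 CPM in LG/J and from 101 to 1767 in SM/J, with medians of 128 and 309. The part of this difference in the Lyz1 and Lyz2 levels was not tested.

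**Figure D4:**
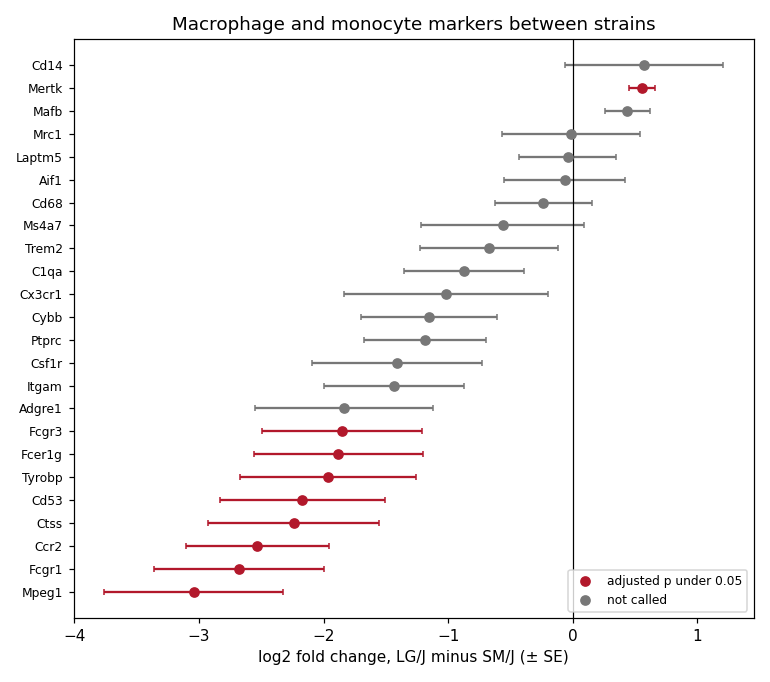
Log2 fold change, LG/J minus SM/J, ± SE of the edgeR fit for the 24 macrophage and monocyte markers kept, ordered by size, with adjusted p under 0.05 in red. The markers lie mostly left of 0, with 8 called lower and Mertk alone called higher.

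Markers of other cell types were examined in the same fit, in which 13.5% of all genes were lower and 16.4% higher in LG/J. Of 12 Paneth cell and gut secretory markers none was kept. The defensin genes Defa17, Defa21, Defa22 and Defa26 were at 0 counts in all libraries, and the summed level of the list was 0 to 1.20 CPM in LG/J and, in SM/J, 0.317 to 2.05. Of 8 markers of lung alveolar type 2 cells 3 were kept, and Abca3, a lipid transporter, was higher in LG/J (0.61 ± 0.14). Of 14 neutrophil and granule markers 5 were kept and 2 were lower, Ngp (-2.37 ± 0.57) and Ltf, or lactoferrin (-2.52 ± 0.64), with a list median of -0.32. S100a8, at 2.13 ± 0.97, and Camp, at 1.75 ± 0.78, lay on the other side without passing the test, and both LG/J libraries numbered 1 had S100a8 at 30.4 and 91.4 CPM against at most 0.619 in the other LG/J libraries. Of 10 osteoclast markers 8 were kept and 3 were lower, the fusion protein gene Dcstamp (-2.76 ± 0.42), the receptor gene Oscar (-2.37 ± 0.32) and the proton pump subunit gene Atp6v0d2 (-1.66 ± 0.42), with a list median of -0.07. The 5 osteoclast markers not called lay between -0.20 for Ctsk and 0.43 for Ocstamp. Of 8 blood and vessel markers only Pecam1 was kept, at -0.05 ± 0.26. All 10 chondrocyte markers were kept, with a median of 0.55, and Hapln1, Sox9 and Acan were higher in LG/J by 1.00, 0.47 and 0.94.

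Genes that act around lysozyme were examined next. Of 10 transcription factors of the myeloid programme 7 were kept, and their differences ran from -0.57 ± 0.33 for Irf8 to 0.32 ± 0.21 for Cebpa, each with an adjusted p of 0.194 or more, and their median was 0.10. Spi1, which encodes PU.1, was not kept, with 94 counts in LG/J and 128 in SM/J in all. Of 19 genes that sense or handle peptidoglycan, the substrate of lysozyme and its fragments, 14 were kept, 3 were higher and 1 lower, with a median of 0.22. Slc46a3 differed by 1.06 ± 0.23, Tab2, a kinase adaptor, by 0.22 ± 0.06, and Myd88, the adaptor of Toll-like receptors, by -0.27 ± 0.07. The third higher gene was Xiap, at 0.22 ± 0.08. At 4 of 14 the share called was near the 29.9% of all genes.

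Other lysozyme-related genes had few counts. None of the 8 further family members in the list was kept, and the most counts in all 16 libraries of a strain were 53 in LG/J and 30 in SM/J for Lyg2 and 48 and 52 for the milk protein gene Lalba. The sperm protein gene Spaca3 had 8 and 5. Within 300 kb of the pair 10 other genes were counted and 6 were kept. Frs2, an adaptor of fibroblast growth factor receptors, and Cct2, a chaperonin subunit, were higher in LG/J by 0.56 ± 0.10 and 0.21 ± 0.07, and Lrrc10 was lower, at -2.69 ± 0.44, from a level of 0.847 ± 0.537 CPM in SM/J. Cpsf6, Yeats4 and 9530003J23Rik, which RefSeq lists under the synonym Lyzf1, were not called, at 0.06 ± 0.05, 0.11 ± 0.12 and -0.58 ± 0.28. The last, which is not in the family list, had 101 counts in LG/J and 159 in SM/J in all. The 3 of 6 called by strain stand beside 29.9% of all genes. Of these 6 neighbours Frs2 and Yeats4 were also called between the sexes of SM/J, at -0.61 and -0.82, male minus female, beside 5.76% of all genes.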

How the data were processed

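Total RNA went into SMARTer libraries, per the labels' protocols, and strain, sex and number were taken from the sample titles. The submitters' processing notes name STAR 2.0.4b, featureCounts 1.45 of Subread and the build GRCm38. Not given in the sources used here are the annotation release, the strand setting and the treatment of reads fitting several genes. For each library the authors deposited read counts, CPM and RPKM for 41388 genes. The deposited CPM values equalled count over library total within 1.2e-10, and the deposited RPKM values that CPM over gene length within 9.1e-11. Names came from a table of Ensembl IDs that matched 40254 genes.

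Total counts were 15840330 to 25571598 per library. filterByExpr kept 16136 genes, and counts were scaled by TMM and fitted in R 4.3.3 with edgeR 4.0.16 (quasi-likelihood, robust, 1 mean per strain and sex, all 32 libraries). Adjustment was by Benjamini and Hochberg across the kept genes, with calls at an adjusted p under 0.05. The script was tested on simulated data. The alternatives were other scalings and filters, DESeq2 1.42.0, voom of limma 3.58.1, the library number as a block, and libraries left out or summed. Correlations used a prior count of 2. Sequences were compared with Biopython 1.88, and amino-acid sequences were not used here.

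The members and the gene lists were chosen with earlier results of these data known. The genes named are Lyz1, Lyz2, Csf1r and Mpeg1, up to 3 called members with the smallest p of each list, the kept genes within 300 kb of the pair, and the 5 genes most like each copy in a strain where its mean count was at least 10. Other genes named were chosen after their values were seen.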

Additional observations from a re-analysis of the deposited data

Results flagged for a closer look

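In 9 of 20 sets of 8 libraries examined (Lyz1, Lyz2, Csf1r and Mpeg1 levels and the Lyz1 share in each group), the highest or lowest library lay far from the rest, its gap to the nearest other taking more than 0.526 of the whole range. That limit gives about 1 chance flag in 20 sets only for independent, normally distributed values. Most of these values are unlogged levels, some of them correlated, and several flags share a library. The number of flags was therefore not set against chance. LG/J male 6 stood apart for Lyz2 at 1022 CPM (nearest other 104), for Csf1r at 159 CPM (15.6) and for Mpeg1 at 12.6 CPM (0.490). SM/J female 2 stood apart for Lyz1 at 90.5 CPM (43.7), for Lyz2 at 452 CPM (234), for Csf1r at 178 CPM (31.2) and for Mpeg1 at 25.7 CPM (8.17). SM/J male 8 stood apart for Csf1r at 30.1 CPM (15.0). SM/J male 5 had a Lyz1 share of 13.6%, with 15.5% the nearest other in its group.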

How the results depend on the processing

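Of 590 results under alternatives, 550 kept their direction and their side of the threshold, or stayed within 1.5 times of a count. Without the 6 libraries that mixed transcripts of the sexes, the sex differences in SM/J turned to -0.025 for Lyz1 and -0.052 for Lyz2. In that fit 5 macrophage markers were lower in LG/J, beside 10.4% of all genes. In LG/J the same alternative raised the sex difference of Lyz1 from 0.55 to 1.54 and its strain by sex term from 0.24 to 1.57 (adjusted p = 0.517), with neither called. That term turned to -0.10 with voom and to -0.52 without LG/J male 6 and SM/J female 2. DESeq2, with LG/J male 6 in the fit and its handling of outlying counts turned off, called the sex difference of Lyz2 in LG/J (2.72). Without LG/J male 6 and SM/J female 2, Csf1r was called lower in LG/J (-1.97, edgeR adjusted p = 0.00151) and 14 markers were lower, beside 14.3% of all genes. Voom gave 13 markers lower, beside 18.4% of all genes, and summing close pairs 3, beside 8.91%. Without both LG/J libraries numbered 1, 2 markers were higher, beside 17.1% of all genes. The sex difference of the LG/J share was -0.320 points in that case and -0.247 with close pairs summed. With no filter on low counts, 5 neighbours were called, beside 6.23% of genes lower and 8.14% higher in that fit of 35652 genes. In each case the cause was not tested.

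Correlations in LG/J changed most. In females alone r was -0.0041 for Lyz1 with Csf1r, -0.43 for Lyz1 with Mpeg1, 0.74 for Lyz2 with Csf1r and 0.11 for Lyz2 with Mpeg1. Without LG/J male 6 it was -0.083, -0.25, 0.83 and 0.45. In SM/J females r with Mpeg1 was 0.80 for Lyz1 and 0.79 for Lyz2, both at an adjusted permutation p of 0.0542.

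Leaving out each library in turn gave sex differences of 0.14 to 0.65 for Lyz1 and 0.14 to 0.62 for Lyz2 in SM/J, and of 0.11 to 1.00 and 0.74 to 2.92 in LG/J, with strain by sex terms of -0.18 to 0.70 and 0.45 to 2.62. Csf1r ranged from -2.67 to -0.71 and Mpeg1 from -4.39 to -2.53. Markers lower in LG/J numbered 5 to 18, beside 12.3 to 14.5% of all genes, and higher 1 to 2, beside 14.9 to 17.3%. Neighbours called either way numbered 3 to 4, beside the same shares. The share differed between sexes by -0.0268 to 0.531 points in SM/J and by -0.311 to 0.178 points in LG/J.

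Groups share library numbers. Of 48 same-numbered pairs 30 had a correlation of deviations over 0.1 (range -0.45 to 0.84), with a median of 0.14 against -0.01 for other pairs, and 7 of 32 libraries correlated best with their own number. Since not every same-numbered pair exceeded 0.1 and the labels name no shared source, the numbers were not taken as a pairing. With the number as a block, the sex difference was 0.38 (Lyz1) and 0.27 (Lyz2) in SM/J and 0.57 and 1.26 in LG/J. The strain by sex terms were then 0.19 and 0.98. Csf1r was -1.87 (edgeR adjusted p = 0.0615) and Mpeg1 was -3.76 (edgeR adjusted p = 0.000211). With this block 11 markers were lower and 1 higher, and 3 neighbours were called, beside 16.2% of all genes lower and 16.6% higher. The calls of the single genes stayed on their side of the threshold, and the markers called lower went from 8 to 11. Depth limits Lyz1 in LG/J, where 1 count is a large part of each value. The planned comparison of the proteins was not run.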

Other observations

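In the LG/J libraries whose counts lay closest to each other, the share of Lyz1 rested on 1 to 19 Lyz1 counts. It was 1.30 and 2.13% in females 4 and 5, and 3.55 and 2.38% in males 4 and 5. Females 7 and 8, at 1 Lyz1 count each, had 0.133 and 0.212% (exact intervals 0.00337 to 0.740% and 0.00538 to 1.18%). Males 2 and 3, at 2 counts each, had 0.472 and 0.512% (0.0572 to 1.69% and 0.0620 to 1.84%). Within each pair the intervals overlapped, so likeness within a pair is not resolved from counting error. Between pairs some intervals overlapped, as for females 4 (0.715 to 2.18%) and 7, and others did not, as for males 4 (2.12 to 5.55%) and 2.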
